A study of Mus musculus and Homo sapiens with 14 samples.

Results

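The genes described here are 39 interferon-stimulated effector genes, measured by RNA sequencing in EL4 tumours and in cultured EG7-OVA cells. They were chosen by symbol, with earlier results of these data known, and all 39 had a row in both deposited tables, which hold 69545 gene symbols between them. EL4 is a mouse T-cell lymphoma line, and EG7-OVA is a transfectant of EL4 that makes chicken ovalbumin. The tumours had the genotype label WT and were labelled P0 or P3, and what P0 and P3 stand for is not given in the sources used here, nor is the age of the mice. Whole tumours were sequenced, so host cells are part of these libraries. The EG7-OVA cells were given DMSO, the solvent, azacytidine at 1.5 µM or decitabine at 0.2 µM at 0, 24 and 48 h, and RNA was taken at 72 h. Each of the 5 groups had 2 libraries. The doses of the drugs differ, and another cell line of the series was not analysed here.

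Type I and type III interferons signal through JAK kinases to a complex that includes STAT2 and IRF9 and binds the interferon-stimulated response element (ISRE) in target promoters. Interferon gamma acts on its target promoters through the gamma-activated site (GAS). Azacytidine, a ribonucleoside, and decitabine, its deoxyribonucleoside counterpart, are incorporated into nucleic acid and trap DNA methyltransferases. Loss of methylation can let endogenous retroviral RNA accumulate, and the sensing of such RNA as if it were viral is known as viral mimicry. The title of the study names this process, in lymphoma treated with PD-1 blockade.

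The 39 genes fall into 5 roles. Stat2, Irf9, Irf1, Irf7 and Irf8 encode transcription factors. Isg15 encodes a ubiquitin-like modifier, Uba7 its activating enzyme, Herc6 and Trim25 ligases, and Usp18 the protease that removes it. Ifit1, Ifit2, Ifit3, Ifit3b, Mx1, Mx2, Rsad2, Cmpk2, Isg20, Bst2, Ifitm3, Samd9l, Ddx60, Znfx1 and Trim21 form the antiviral effectors. Parp9, Parp12 and Parp14 are ADP-ribosyltransferase family members, and Dtx3l is the ubiquitin ligase that partners Parp9. The last role holds Sp100 and Sp110 of nuclear bodies with Helz2, Xaf1, Ifi27, Ifi35, Ifi44, Rtp4, Epsti1 and Lgals3bp.

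Promoter sequence differed among these genes, and the sequences below show the 2 kinds of interferon element beside genes on which the results turn. RefSeq windows on GRCm38.p6, from 250 bases before to 50 after each start, were found for 32 of the 39 genes. Usp18, Mx1, Mx2, Parp9, Parp14, Ifi27 and Rtp4 had no window. The ISRE core was searched on both strands as 2 GAAA blocks with any 2 bases between them, and the GAS as TTCNNNGAA, which reads alike on both. An ISRE core stood in 10 of the 32 genes, 31.2%, against 3.99% of 27025 genes with a window. A GAS stood in 7 of the 32, 21.9%, against 9.55%. Bases are written 5′ to 3′ along the gene's strand, in capitals where they match an ISRE core or a GAS, and all lie before the start. The windows are chr4:156200845-156200926 on the minus strand for Isg15, chr19:34640755-34640843 on the plus strand for Ifit1, chr19:34583343-34583446 on the plus strand for Ifit3, chr12:26456533-26456602 on the minus strand for Rsad2, chr10:128270248-128270315 on the plus strand for Stat2, chr11:53769894-53769962 on the plus strand for Irf1 and chr7:78913321-78913389 on the plus strand for Isg20.
Isg15: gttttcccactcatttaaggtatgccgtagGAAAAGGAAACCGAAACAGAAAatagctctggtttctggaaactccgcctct
Ifit1: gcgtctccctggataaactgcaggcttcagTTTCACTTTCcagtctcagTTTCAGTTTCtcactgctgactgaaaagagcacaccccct
Ifit3: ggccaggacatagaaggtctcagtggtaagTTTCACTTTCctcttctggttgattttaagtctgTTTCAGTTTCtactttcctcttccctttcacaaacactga
Rsad2: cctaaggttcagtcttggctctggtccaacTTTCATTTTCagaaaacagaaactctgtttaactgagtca
Stat2: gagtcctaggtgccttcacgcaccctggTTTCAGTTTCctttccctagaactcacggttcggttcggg
Irf1: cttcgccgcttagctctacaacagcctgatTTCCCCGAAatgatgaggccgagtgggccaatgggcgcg
Isg20: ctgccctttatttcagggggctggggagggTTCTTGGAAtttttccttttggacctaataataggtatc

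Isg15 carried 3 overlapping ISRE cores in a row, and Ifit1 and Ifit3 each carried 2 on the opposite strand. The 104 bases shown for Ifit3 were letter for letter those before Ifit3b, chr19:34607739-34607842 on the plus strand. Stat2 and Rsad2 each carried 1 core. Irf1 and Isg20 had GAS letters and no ISRE core in this window. The other genes with an ISRE core were Bst2, Ddx60, Ifit3b, Ifitm3 and Trim21, and the others with a GAS were Bst2, Ifi35, Ifit2, Ifitm3 and Irf8, so that Bst2 and Ifitm3 held both. The median number of CpG dinucleotides, the sites that DNA methyltransferases act on, was 6 in the members' windows and 7 over all genes. A match of letters is a description of the window and not evidence of binding.

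Several members are neighbours or near copies, which bears on how far their counts are separate. Ifit2, Ifit3, Ifit3b and Ifit1 lie in that order on chromosome 19 between 34550694 and 34650009 (mm10, GENCODE vM21). Ifit3 shared 51.2% of its 50-base stretches with Ifit3b, so reads could have been assigned to either and both values are uncertain. Dtx3l (chromosome 16, 35926511 to 35939151, minus strand) and Parp9 (35938470 to 35972605, plus strand) overlap, and whether strand was used in counting is not given in the sources used here. Rsad2 and Cmpk2 start on opposite strands of chromosome 12 with their starts facing each other. Mx2 is annotated as a polymorphic pseudogene in this build.

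Total counts were 21621580 to 25328708 per EL4 library and 15690747 to 21048979 per EG7-OVA library, and levels are given as counts scaled to the library total (CPM). The 10 T-cell markers were all detected in every library, at summed levels of 2178 to 2624 CPM in the tumours and 1899 to 2691 CPM in the cells. Cd247, the CD3 zeta chain, was the lowest of the 10 in EG7-OVA, at 1.19 to 9.07 CPM. The libraries of a group were not equal in these genes. P0 library 2 exceeded library 1 in 35 of 39 members, P3 library 1 exceeded library 2 in 31, and DMSO library 2 exceeded library 1 in 29. The labels do not say whether a group's libraries came from separate mice or cultures, so p-values measure the spread between these libraries only. DMSO libraries are numbered by their columns, since the labels number them in 2 ways.

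In every comparison below, a gene was called when its adjusted p was under 0.05 in edgeR's quasi-likelihood test with Benjamini-Hochberg adjustment over all genes tested. Log2 fold changes are given ± SE. The level of a gene is given as CPM in library 1 and then library 2.

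Levels per kilobase of exon set the members apart by orders of magnitude. Ifitm3, which blocks viral entry at membranes, was first in both tumour groups, at 529 CPM per kilobase in P0 and 494.7 in P3. Lgals3bp, a secreted glycoprotein, followed at 75.7 and 75.1, and Bst2, which tethers budding virions, at 60.4 and 37.1. In the DMSO cells Bst2 was first at 52.3 CPM per kilobase, ahead of Isg20, an exonuclease, at 26.3 and Trim25 at 21.3. Ifitm3 was at 0.428 and 8.53 CPM in the DMSO libraries and at 332 to 386 CPM in P0 tumours. Such differences between the tables are set beside each other only, since the tables were counted and scaled separately and the tumours hold host cells. Ifit3b, Ddx60 and Ifi44 had no read in either DMSO library.

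**Figure D1:**
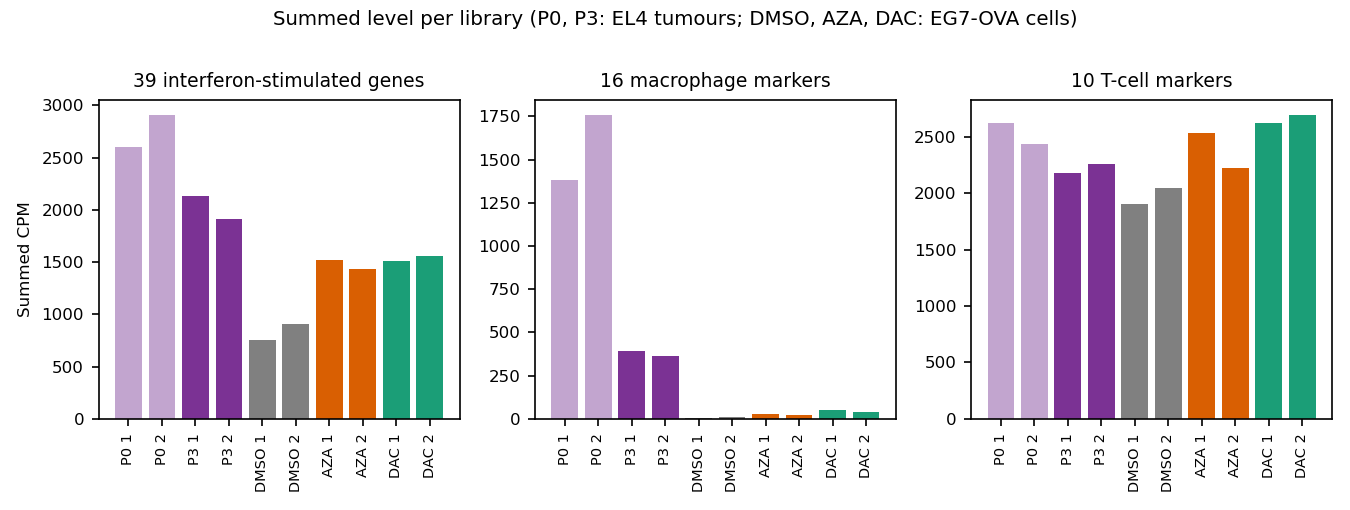
Summed CPM of the 39 interferon-stimulated genes, of 16 macrophage markers and of 10 T-cell markers, 1 bar per library with the axis from 0; AZA is azacytidine and DAC decitabine. The members' sum was 2600 and 2907 in P0, 2129 and 1915 in P3, 756 and 907 with DMSO, and 1431 to 1562 with either drug.

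The first comparison set P3 tumours against P0 tumours. Of the 39 members 25 were lower in P3 and 1, Sp110, was higher, and 13 did not pass. Over all 19993 genes tested, 19.9% were lower and 18.8% higher. The members' median log2 fold change was -0.76, and that of all genes -0.0019. No edgeR call stayed with either P0 library left out, for a member or any other gene. The members' median log2 fold change was -0.79 without P0 library 1 and -0.61 without P0 library 2. Why the calls were lost was not tested. DESeq2, an alternative tool, then called 18 members lower without P0 library 1 and 9 without P0 library 2, a setting chosen after seeing the data. Those 9 were Irf8, Ifit1, Ifit3, Mx2, Rsad2, Cmpk2, Isg20, Dtx3l and Epsti1, and the same 9 stayed called in both of these fits.

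All 5 transcription factors were lower in P3. Irf8, a factor of myeloid and B-cell development, was at 82.6 and 93.3 CPM in P0 and at 14.4 and 13.4 CPM in P3, a log2 fold change of -2.72 ± 0.11 (adjusted p = 0.000366). The P0 and P3 libraries lay far apart, with little spread inside each group. Irf9, the DNA-binding subunit of the complex that binds the ISRE, was at 29.7 and 35.6 CPM in P0 and 17.5 and 17.8 CPM in P3, a log2 fold change of -0.94 ± 0.13 (adjusted p = 0.00577). Stat2, its partner, was at 60.3 and 76.5 CPM against 51.8 and 40.6 CPM, a log2 fold change of -0.63 ± 0.15 (adjusted p = 0.0252). The lower P0 library and the higher P3 library of Stat2 were close, though the groups did not overlap. Irf1, an early activator, was at 78.0 and 86.4 CPM against 59.3 and 42.1 CPM, a log2 fold change of -0.76 ± 0.16 (adjusted p = 0.0158). Irf7, which amplifies interferon transcription, was at 32.2 and 47.9 CPM against 22.3 and 15.0 CPM, a log2 fold change of -1.17 ± 0.24 (adjusted p = 0.0168). In Irf1 and Irf7 too, both P3 libraries were below both P0 libraries.

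The ISG15 system moved unevenly, with 3 of 5 members lower. Isg15 itself was at 3.92 and 6.67 CPM in P0 and 0.879 and 1.14 CPM in P3, a log2 fold change of -2.44 ± 0.38 (adjusted p = 0.00728). The ligases Trim25 and Herc6 had much smaller changes, each -0.43 on the log2 scale with an SE of 0.09 and 0.12. Usp18, the ISG15 protease and a brake on the receptor, was at 49.0 and 56.1 CPM in P0 and 61.6 and 35.1 CPM in P3 and did not pass (log2 fold change -0.19 ± 0.24). Its P3 libraries lay on either side of both P0 libraries. Uba7 also overlapped between the groups, at 48.3 and 61.5 CPM against 82.5 and 57.2 CPM.

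Among the antiviral effectors 9 of 15 were lower, and they included the steepest differences of the 39 genes. Ifit3, which with the cap sensor Ifit1 binds viral RNA, was at 12.8 and 28.4 CPM in P0 and 1.90 and 1.35 CPM in P3, a log2 fold change of -3.72 ± 0.44 (adjusted p = 0.00378). Ifit1 was at 10.2 and 20.8 CPM against 2.68 and 1.57 CPM, a log2 fold change of -2.93 ± 0.43 (adjusted p = 0.00634). In both genes P0 library 2 was more than 2-fold above P0 library 1, and both were above the P3 pair. Rsad2, viperin, which makes a chain-terminating nucleotide, was at 21.3 and 28.9 CPM against 5.0 and 2.93 CPM, a log2 fold change of -2.73 ± 0.29 (adjusted p = 0.00286). Its neighbour Cmpk2, a mitochondrial nucleotide kinase, was at 18.3 and 24.8 CPM against 4.58 and 2.31 CPM, a log2 fold change of -2.71 ± 0.34 (adjusted p = 0.00424). The 2 neighbours thus had fold changes within 1 SE of each other.

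Isg20 was at 33.1 and 33.9 CPM in P0 and 11.5 and 12.2 CPM in P3, a log2 fold change of -1.56 ± 0.13 (adjusted p = 0.00171). Bst2 was at 54.7 and 54.3 CPM against 32.0 and 35.0 CPM, a log2 fold change of -0.76 ± 0.11 (adjusted p = 0.00633). These genes had close replicates in both groups. Mx1, a dynamin-like GTPase, was at 92.0 and 110 CPM in P0 and at 24.7 and 7.21 CPM in P3, a log2 fold change of -2.74 ± 0.51 (adjusted p = 0.0124). The P3 libraries of Mx1 differed more from each other than those of most members. Mx2 and Ifit3b were lower as well, by -1.97 ± 0.37 and -3.36 ± 0.56 on the log2 scale. Ifit2, Ifitm3, Samd9l, Ddx60, Znfx1 and Trim21 did not pass, and of these only Ddx60 had groups that did not overlap, at 11.0 and 16.3 CPM in P0 and 10.7 and 4.76 CPM in P3.

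Of the ADP-ribosylation genes 3 of 4 were lower. Dtx3l was at 163 and 175 CPM in P0 and 90.1 and 90.3 CPM in P3, a log2 fold change of -0.96 ± 0.09 (adjusted p = 0.00207). Parp14 and Parp9 were lower by -0.76 ± 0.14 and -0.48 ± 0.12 on the log2 scale, and Parp12 was at 60.5 and 62.7 CPM against 73.7 and 55.3 CPM and did not pass. In the last role 5 of 10 were lower, namely Helz2, Ifi35, Epsti1, Rtp4 and Ifi44, with log2 fold changes from -0.56 to -2.30. Sp110 was at 53.2 and 56.2 CPM in P0 and 76.2 and 67.2 CPM in P3, a log2 fold change of 0.33 ± 0.09 (adjusted p = 0.0404). That call was lost in DESeq2, at an adjusted p of 0.0511, and with either P0 library left out. Over all roles 28 members had P3 levels wholly below P0, where 35.2% of all genes did, and 1 had levels wholly above, where 40.5% did.

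**Figure D2:**
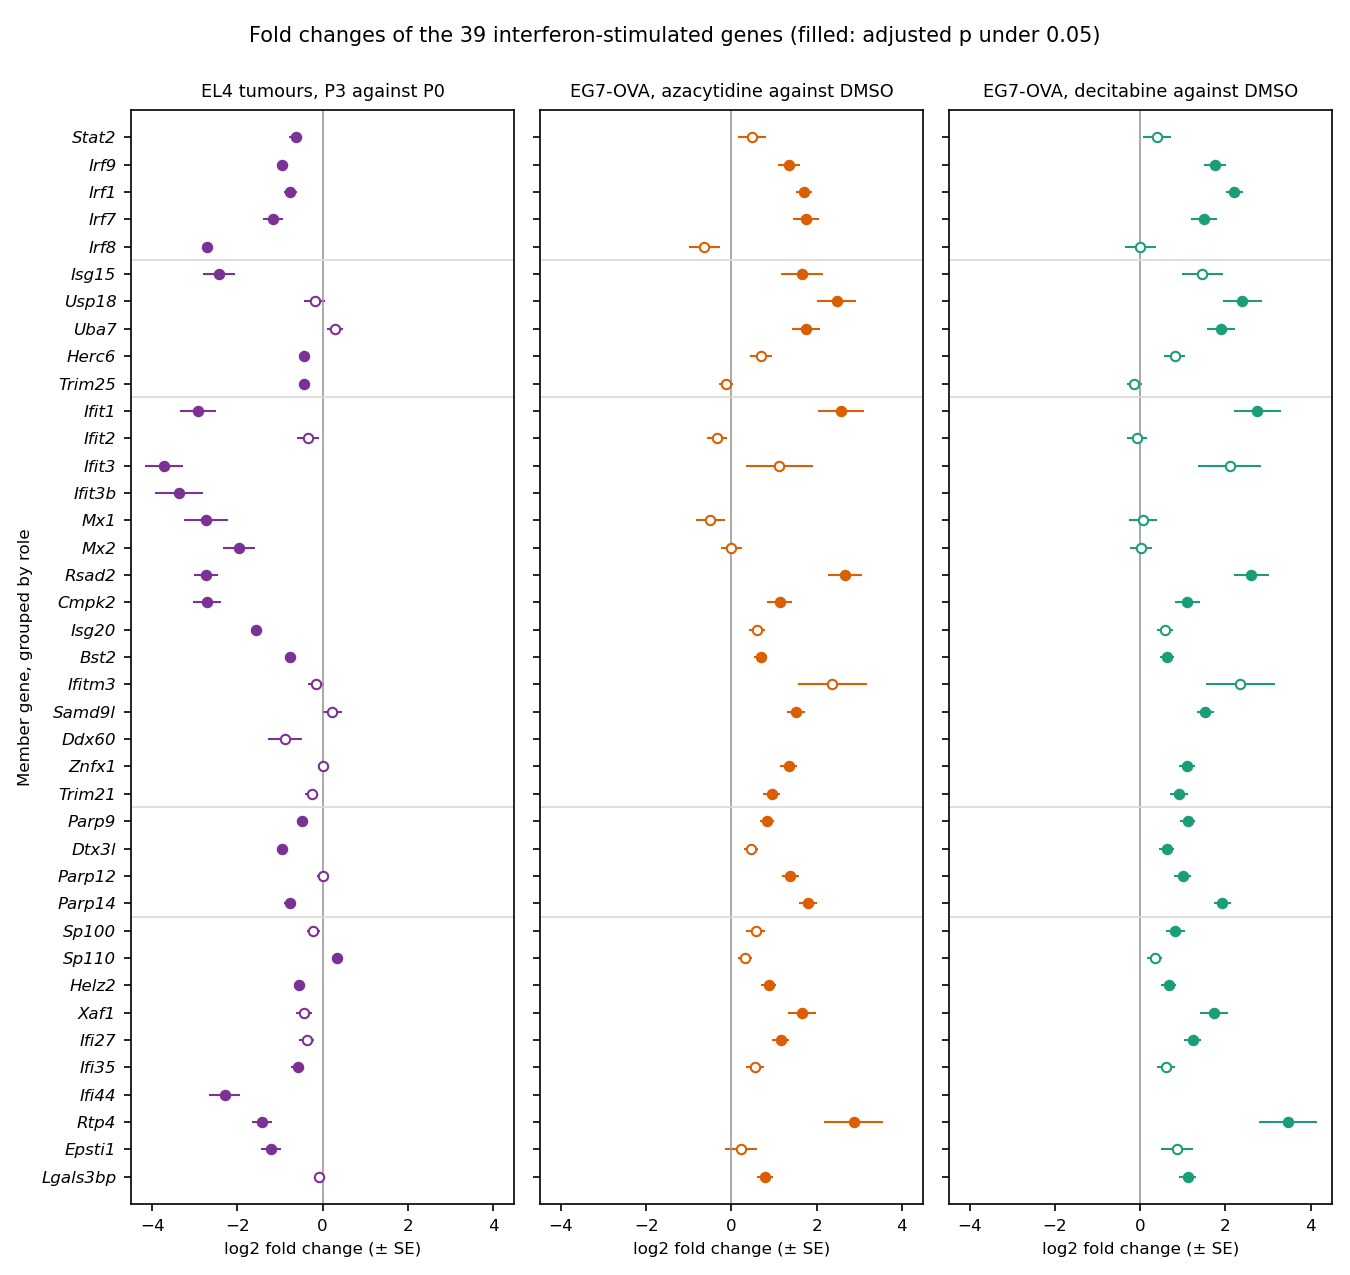
Log2 fold change ± SE of each member, grouped by role from transcription factors at the top, in 3 panels (P3 against P0 tumours, azacytidine against DMSO, decitabine against DMSO); filled points have an adjusted p under 0.05, and a missing point was not tested. In the tumour panel 25 filled points lie left of 0 and 1 lies right, and in the drug panels 21 and 22 filled points all lie right of 0.

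Markers of several host cell types moved with this comparison, in which 19.9% of all genes were lower and 18.8% higher. Of 16 macrophage markers 15 were lower in P3, with a summed level of 1381 and 1758 CPM in P0 and 393.1 and 364.3 CPM in P3. None of the 16 was at 0 in any tumour library. Of 10 dendritic cell markers 8 were lower, with sums of 172.4 and 203.2 CPM in P0 and 49.4 and 48.2 CPM in P3, where 1 marker was at 0 in P3 library 2. All 9 tested B-cell markers were lower, with sums of 283 and 502.5 CPM against 67.0 and 69.0 CPM, and 1 to 3 of the 10 were at 0 in each library. Of 7 tested neutrophil markers 4 were higher, with sums of 4.56 and 5.45 CPM against 16.7 and 64.8 CPM. The summed T-cell markers were 2624 and 2438 CPM in P0 and 2178 and 2254 CPM in P3, with 2 of 10 lower, near the share of all genes. Of 10 fibroblast and endothelium markers, none of them at 0 in a tumour library, 2 were lower, again near that share, and 1 higher. Their sums were 2661 and 2770 CPM in P0 and 1673 and 973.0 CPM in P3. The collagen genes Col1a1 (-2.39) and Col1a2 (-2.61) were the lower ones on the log2 scale, and Pdgfrb, a growth factor receptor of pericytes and fibroblasts, was the higher (1.13). P0 library 2, the higher library in 35 of 39 members, also had the higher sum of every list here except the T-cell markers. P3 library 1 was the higher library in 31 of 39 members. Its macrophage, dendritic cell, and fibroblast and endothelium sums were the higher of the P3 pair. Its B-cell, neutrophil and T-cell sums were the lower. In bulk tumours fewer cells of a type and less RNA per cell cannot be told apart, and the part of host cells in the members' lower levels was not tested.

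The next comparisons set EG7-OVA cells given azacytidine or decitabine against the DMSO cells. Both use the same DMSO libraries, so their results are not independent and are given side by side only. Of 36 members tested, 21 were higher and 0 lower with azacytidine, where 13.6% of 19123 genes were higher and 6.7% lower. With decitabine 22 were higher and 0 lower, where 12.4% of all genes were higher and 4.3% lower. The members' median log2 fold change was 1.03 with azacytidine, against 0.033 for all genes, and 1.11 with decitabine, against 0.036. Without azacytidine library 1 the count was 12, and without decitabine library 2 it was 14. Whichever of the 6 libraries was left out, 10 of the 21 azacytidine calls stayed, for Irf1, Irf7, Usp18, Uba7, Rsad2, Samd9l, Znfx1, Parp12, Parp14 and Ifi27. Likewise 12 of the 22 decitabine calls stayed, for Irf9, Irf1, Usp18, Uba7, Ifit1, Rsad2, Samd9l, Znfx1, Parp9, Parp14, Ifi27 and Lgals3bp.

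Irf1, Irf7 and Irf9 rose with each drug, and Stat2 and Irf8 did not pass. Irf1 was at 17.8 and 20.4 CPM with DMSO, 68.9 and 54.2 CPM with azacytidine and 89.9 and 88.3 CPM with decitabine. Its log2 fold change was 1.69 ± 0.19 (adjusted p = 0.000286) and 2.21 ± 0.19 (adjusted p = 9.3e-05). The treated libraries were all well above the DMSO pair. Irf9 was at 6.37 and 7.85 CPM with DMSO, 19.8 and 16.3 CPM with azacytidine and 21.1 and 26.8 CPM with decitabine, log2 fold changes of 1.35 ± 0.25 (adjusted p = 0.00496) and 1.75 ± 0.26 (adjusted p = 0.00156). Irf7 was at 3.28 and 5.18 CPM, 14.3 and 13.8 CPM, and 13.6 and 10.1 CPM in the same order, log2 fold changes of 1.75 ± 0.31 (adjusted p = 0.00354) and 1.49 ± 0.31 (adjusted p = 0.00926). Neither gene had a treated library in the DMSO range.

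Stat2 was at 10.8 and 27.6 CPM with DMSO, 23.8 and 28.5 CPM with azacytidine and 23.9 and 25.8 CPM with decitabine, and the DMSO pair spanned nearly all treated values. Its log2 fold change was 0.48 ± 0.33 and 0.40 ± 0.33. Without DMSO library 2 the values were 1.15 and 1.07 and passed, and without DMSO library 1 they were -0.024 and -0.096. Irf8 was at 3.61 and 6.38 CPM with DMSO, 3.12 and 3.21 CPM with azacytidine and 5.05 and 4.91 CPM with decitabine, log2 fold changes of -0.64 ± 0.37 and 0.0019 ± 0.36. So the partner of Irf9 and the myeloid factor were the members of this role that did not pass with either drug. Both azacytidine libraries of Irf8 were nonetheless below its DMSO pair.

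In the ISG15 system Usp18 and Uba7 rose with each drug. Usp18 was at 2.52 and 9.0 CPM with DMSO, 30.9 and 31.2 CPM with azacytidine and 22.2 and 37.1 CPM with decitabine, log2 fold changes of 2.47 ± 0.46 (adjusted p = 0.00452) and 2.39 ± 0.46 (adjusted p = 0.00612). Uba7 was at 6.41 and 15.7 CPM, 36.2 and 36.7 CPM, and 35.4 and 46.0 CPM, log2 fold changes of 1.75 ± 0.33 (adjusted p = 0.00464) and 1.90 ± 0.33 (adjusted p = 0.00364). In both genes the DMSO libraries differed more than 2-fold, yet both were below every treated library. Isg15 was at 1.04 and 0.785 CPM with DMSO, 3.50 and 2.30 CPM with azacytidine and 1.80 and 3.33 CPM with decitabine. It passed with azacytidine (1.65 ± 0.49, adjusted p = 0.0385) and not with decitabine (1.46 ± 0.49, adjusted p = 0.0688), though its treated libraries were all above DMSO. The ligases Herc6 and Trim25 did not pass with either drug. Trim25 stayed between 104 and 124 CPM in all 6 libraries, with every treated library below both DMSO libraries.

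Of the 13 tested antiviral effectors 7 rose with each drug: Ifit1, Rsad2, Cmpk2, Bst2, Samd9l, Znfx1 and Trim21. Rsad2 was at 3.66 and 6.07 CPM with DMSO, 39.5 and 21.1 CPM with azacytidine and 38.7 and 20.7 CPM with decitabine, log2 fold changes of 2.66 ± 0.40 (adjusted p = 0.00158) and 2.61 ± 0.40 (adjusted p = 0.00207). Library 1 was the higher of the pair with each drug and the lower with DMSO. Ifit1 rested on few reads, at 0.380 and 0.209 CPM with DMSO, 2.17 and 1.45 CPM with azacytidine and 1.91 and 2.23 CPM with decitabine, log2 fold changes of 2.57 ± 0.55 (adjusted p = 0.00861) and 2.75 ± 0.54 (adjusted p = 0.0073). Samd9l, which restricts poxviruses, was at 20.0 and 20.4 CPM, 51.1 and 64.7 CPM, and 66.5 and 51.1 CPM, log2 fold changes of 1.51 ± 0.20 (adjusted p = 0.000735) and 1.53 ± 0.20 (adjusted p = 0.000835). Samd9l had one of the closest DMSO pairs of all members. Znfx1, a helicase that senses viral RNA, was at 41.5 and 43.5 CPM, 119 and 95.6 CPM, and 83.1 and 101 CPM, log2 fold changes of 1.34 ± 0.19 (adjusted p = 0.00112) and 1.10 ± 0.19 (adjusted p = 0.00372). Bst2 was at 43.6 and 51.0 CPM, 78.3 and 72.7 CPM, and 72.8 and 74.1 CPM, log2 fold changes of 0.68 ± 0.16 (adjusted p = 0.0146) and 0.63 ± 0.16 (adjusted p = 0.0241). Bst2 was the smallest of the azacytidine changes that passed. Cmpk2 and Trim21 lay between these, with log2 fold changes of 1.13 and 0.95 with azacytidine and 1.11 and 0.91 with decitabine.

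Ifit2, Mx1 and Mx2, although textbook interferon targets, did not pass with either drug. Mx1 was at 7.65 and 16 CPM with DMSO, 7.46 and 9.08 CPM with azacytidine and 12 and 12.5 CPM with decitabine, log2 fold changes of -0.49 ± 0.33 and 0.07 ± 0.33. Ifit2 was at 16.8 to 27.6 CPM and Mx2 at 10.4 to 13.5 CPM over all 6 libraries, with treated libraries inside or beside the DMSO range. For Mx2 the 95% interval of the log2 fold change was -0.56 to 0.56 with azacytidine and -0.54 to 0.57 with decitabine, which leaves out a rise as large as that of Rsad2. Ifit3 was at 0.237 and 0.262 CPM with DMSO, 0.255 and 0.848 CPM with azacytidine and 0.670 and 1.53 CPM with decitabine, log2 fold changes of 1.12 ± 0.79 and 2.10 ± 0.75, neither past the threshold. Ifitm3 had the widest DMSO pair, 0.428 and 8.53 CPM, and at 15.7 to 28.1 CPM its treated libraries were all higher without passing (adjusted p = 0.0652 and 0.0757). Isg20 was at 47.5 and 50.3 CPM with DMSO and at 61.7 to 84.7 CPM in its treated libraries, all higher without passing. Its log2 fold changes were 0.59 ± 0.19 (adjusted p = 0.0518) and 0.57 ± 0.19 (adjusted p = 0.0672). The 3 members with no DMSO read were not tested. Ddx60, a helicase cofactor of RNA sensing, had 16 reads with azacytidine and 23 with decitabine, at least 6.65-fold and 8.16-fold higher than a floor of 3 reads over the DMSO group. Ifit3b had 5 and 9 reads, at least 2.08-fold and 3.19-fold higher, and Ifi44 had 1 and 2 reads. With Ddx60 and Ifit3b at these bounds the median log2 fold change over 38 members was 1.09 and 1.11.

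**Figure D3:**
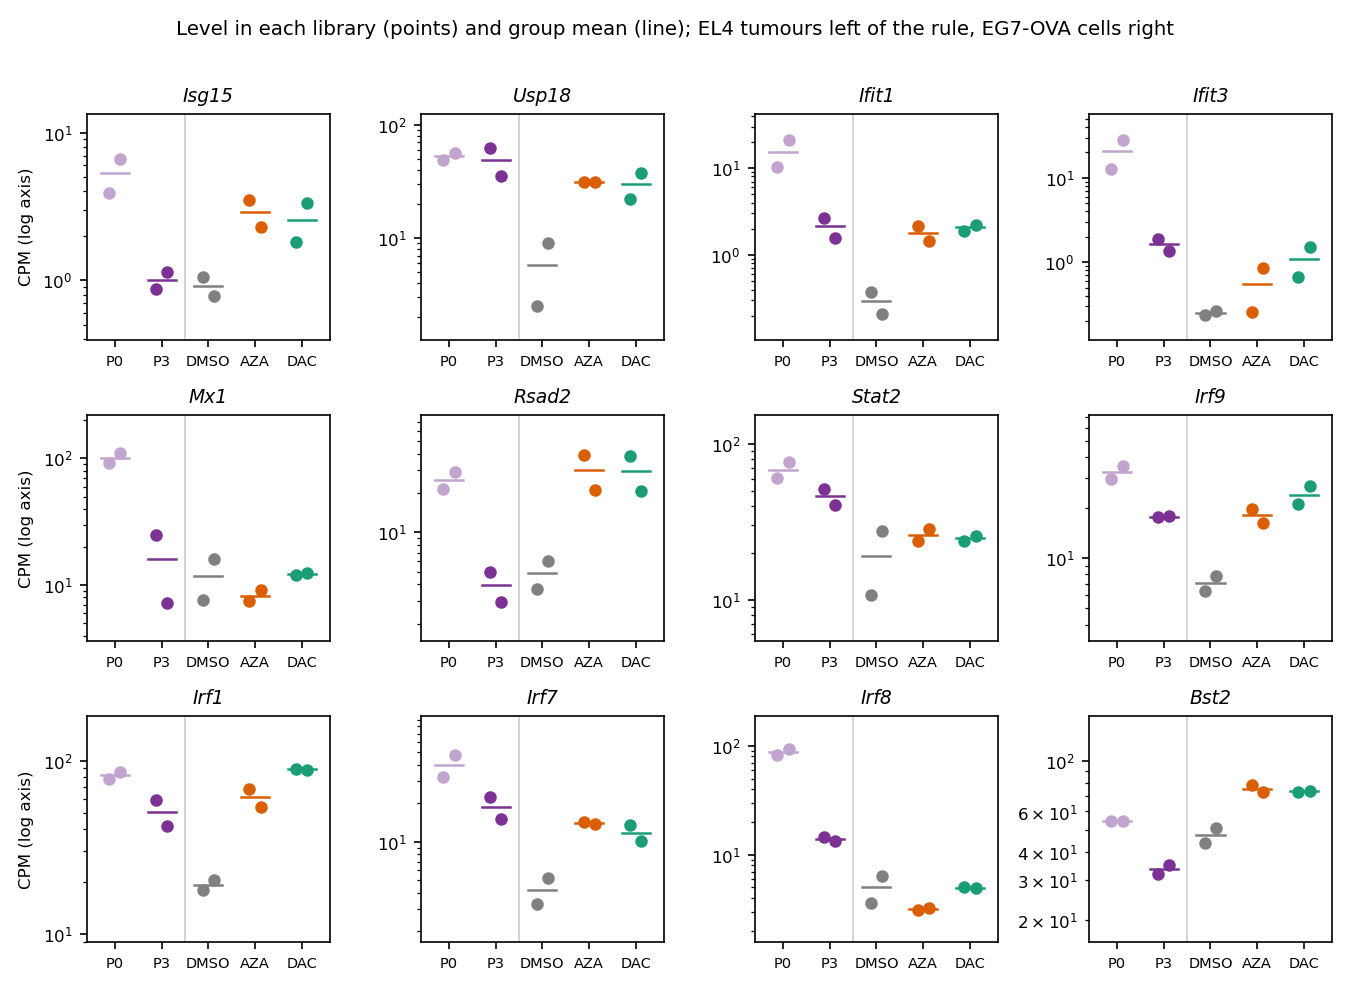
CPM on a log axis for 12 members in each library (points, library 1 left) with the group mean (line), P0 and P3 tumours left of the grey rule and DMSO, azacytidine (AZA) and decitabine (DAC) cells right of it. Irf1, Rsad2 and Usp18 have all 4 treated libraries above both DMSO libraries, whereas the Stat2 and Mx1 DMSO pairs spread over treated values.

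Parp9, Parp12 and Parp14 rose with each drug. Parp14, the member of this role with the largest change, was at 13.3 and 21.0 CPM with DMSO, 54.0 and 63.9 CPM with azacytidine and 66.5 and 63.8 CPM with decitabine, log2 fold changes of 1.80 ± 0.21 (adjusted p = 0.000359) and 1.93 ± 0.21 (adjusted p = 0.000306). Parp12 was at 23.9 and 23.1 CPM, 59.4 and 63.1 CPM, and 40.0 and 54.7 CPM, log2 fold changes of 1.38 ± 0.20 (adjusted p = 0.0014) and 1.00 ± 0.20 (adjusted p = 0.00874). Parp9 was at 29.2 and 37.7 CPM, 53.7 and 65.2 CPM, and 73.5 and 71.5 CPM, log2 fold changes of 0.83 ± 0.17 (adjusted p = 0.00816) and 1.11 ± 0.17 (adjusted p = 0.00232). All treated libraries of these genes were above their DMSO pair. Dtx3l passed with decitabine (0.62 ± 0.17, adjusted p = 0.034) and not with azacytidine (0.46 ± 0.17, adjusted p = 0.09), and the difference between the drugs did not pass either.

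Of the 9 tested members in the last role 5 rose with azacytidine and 6 with decitabine. Ifi27, a mitochondrial membrane protein, was at 24.1 and 30.1 CPM with DMSO, 68.6 and 51.6 CPM with azacytidine and 63.6 and 64.6 CPM with decitabine, log2 fold changes of 1.16 ± 0.20 (adjusted p = 0.00305) and 1.24 ± 0.20 (adjusted p = 0.00258). Helz2, Xaf1, Rtp4 and Lgals3bp rose with each drug as well, with azacytidine log2 fold changes from 0.79 for Lgals3bp to 2.87 for Rtp4. Rtp4, a chaperone of membrane receptors, had the largest fold of all members but rested on 0.0950 and 0.209 CPM in the DMSO libraries. Sp100 passed with decitabine alone (0.82 ± 0.22, adjusted p = 0.031), and Sp110, Ifi35 and Epsti1 with neither. Groups did not overlap upward for 28 members with azacytidine and 30 with decitabine, where 33.3% and 33.1% of all genes did so. Downward it was 2 members with azacytidine, Irf8 and Trim25, and 1 with decitabine, Trim25. Of all 19123 genes 5313 and 4926 did so.

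Markers of some other cell types moved with the drugs as well, at low levels. Over all genes, 13.6% were higher and 6.7% lower with azacytidine, and 12.4% and 4.3% with decitabine. Of 10 tested macrophage markers 5 rose with each drug, namely Adgre1, Cd68, Lyz2, Mrc1 and Cd14, while C1qa, C1qb, C1qc and Marco were among those at 0 reads in all 6 libraries. The macrophage sum was 7.22 and 11.4 CPM with DMSO, 27.2 and 23.6 CPM with azacytidine and 48.9 and 40.0 CPM with decitabine, and Cd68, at up to 28.7 CPM, was the largest part with decitabine. Of 4 tested fibroblast and endothelium markers Col1a1, Col1a2 and Pdgfrb rose with each drug. The sum of that list was 57.0 and 85.1 CPM with DMSO, 123.1 and 93.0 CPM with azacytidine and 138.4 and 131.9 CPM with decitabine. Nearly all of the DMSO sum was Pecam1, at 54.92 and 81.45 CPM, which did not pass with either drug. Col3a1, Dcn, Kdr and Emcn were at 0 reads in all 6 libraries. Col1a2 had 0 reads with DMSO, 395 with azacytidine and 686 with decitabine, at least 164-fold and 243-fold higher than a floor of 3 reads over the DMSO group. Pdgfrb had log2 fold changes of 3.83 and 4.09. Of 3 tested dendritic cell markers 1 was lower with azacytidine, and 1 was higher and 1 lower with decitabine. No B-cell marker passed, and they summed to 333 to 477 CPM over the 6 libraries, of which Ighm reached 434 CPM and no other marker exceeded 20.7 CPM. DMSO library 2 was the higher of its pair for each of them except Ms4a1, which had no read in either. Ebf1 was at 0.0475 and 20.7 CPM and Blk at 1.95 and 20.1 CPM in the DMSO libraries. The bearing of this difference on the drug comparisons was not tested. T-cell marker sums were 1899 and 2047 CPM with DMSO, 2530 and 2225 CPM with azacytidine and 2619 and 2691 CPM with decitabine. The part of these markers' cell types in the members' higher levels was not tested.

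The drugs were also compared with each other as dosed, 1.5 µM azacytidine against 0.2 µM decitabine. No member and no other gene passed in the main edgeR fit, a background of 0%, and 1 member and 1218 genes had an unadjusted p under 0.05. DESeq2 called 0 members, with 37 genes higher and 135 lower with azacytidine. The member was Irf1, with a log2 difference of -0.52 ± 0.18 (95% interval -0.92 to -0.11, adjusted p = 0.589), lower with azacytidine in both libraries. Epsti1, at 6.56 and 6.05 CPM with azacytidine and 11.8 and 8.02 CPM with decitabine, differed by -0.64 ± 0.37. Lgals3bp, at 87.6 and 75.2 CPM and at 89.3 and 117 CPM, differed by -0.33 ± 0.20. Parp12 differed the other way, by 0.38 ± 0.20, and Irf8, Mx1, Irf9 and Parp9 by -0.64, -0.56, -0.40 and -0.28. The intervals of these last 7 all held 0. The intervals stay wide with 2 libraries a group, for Rsad2 from -0.77 to 0.88, so equal effects were not shown. Nor does a call made with one drug alone, as for Isg15, Dtx3l and Sp100, show a difference between them.

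Other genes of the pathway were read from lists by role. Over all genes, 19.9% were lower and 18.8% higher in P3. With azacytidine 13.6% were higher and 6.7% lower, and with decitabine 12.4% and 4.3%. Among 14 genes of receptors, kinases and their regulators, 1 was higher and 6 lower in P3, among them Irf5 (-1.95 ± 0.23). With azacytidine 5 were higher and 1 lower, and with decitabine 5 were higher and 0 lower, Socs3 among the higher genes each time. Socs3, a feedback inhibitor of JAK kinases, had 1 read in the DMSO group and 143 with azacytidine, a ratio of 178 with an exact 95% counting interval of 31.5 to 7093, and 69 with decitabine, a ratio of 73.4 with an interval of 12.7 to 2941. These intervals cover counting error only. Nucleic acid sensors were lower for 3 and higher for 2 of 11 in P3, 27.3% and 18.2%, not far from the shares of all genes. With each drug 7 of 8 tested sensors were higher. Zbp1, which binds Z-form nucleic acids, had the smallest p of the sensors in each comparison, at -2.29 ± 0.16 in P3, 3.15 ± 0.31 with azacytidine and 3.90 ± 0.32 with decitabine. Next by p, though not by fold, came Tlr7 in P3 (-2.93 ± 0.40) and Ddx58, which encodes RIG-I, with the drugs (1.46 ± 0.19 and 1.72 ± 0.19).

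Among 24 tested interferon-stimulated genes that are not members, 15 were lower and 1 higher in P3, beside 19.9% and 18.8% of all genes. The smallest p values were those of Irgm1 (-1.58 ± 0.12) and Igtp (-1.32 ± 0.10), GTPases of intracellular defence. Larger falls passed too, the largest for Gbp2 (-3.04). Of 23 tested in EG7-OVA, 15 were higher with azacytidine and 17 with decitabine, beside 13.6% and 12.4% of all genes. The smallest p values there were those of Igtp (2.56 ± 0.22 and 3.28 ± 0.23) and Gbp2 (4.04 ± 0.35 and 4.62 ± 0.36). The largest rise was that of Iigp1 (5.32 and 6.4). The interferons themselves were barely detected. Ifnb1, Ifna1, Ifna2, Ifna4, Ifna5, Ifne and Ifnl3 had 0 reads in all 10 libraries. Ifng had 37 reads in P0 and 0 in P3, at least 11.6-fold lower against a floor of 3 reads over the group, and in EG7-OVA it was at 0.618 and 0.523 CPM with DMSO, 0.255 and 1.33 CPM with azacytidine and 1.55 and 3.49 CPM with decitabine, where it did not pass. Ifnk, interferon kappa, a type I interferon, had reads in all 10 libraries, at 0.456 and 0.908 CPM in P0, 0.786 and 0.262 CPM in P3 and 0.121 to 0.637 CPM in EG7-OVA, and did not pass in any comparison. Ifnl2 had 2 reads, both in P0 library 2. Transcripts of the other listed type I interferons were not detectable at these depths, which says nothing of protein or of earlier times.

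Tumour and drug results share no library, so calls may be laid side by side. Of the 25 members lower in P3, 12 rose with azacytidine, 11 did not pass and 2 were not tested, and the counts with decitabine were the same 12, 11 and 2. Over all genes lower in P3 and tested in EG7-OVA, 17.8% rose with azacytidine and 17.1% with decitabine, against 12 of 23 members. Members lower in P3 and higher with each drug included Irf1, Irf7, Irf9, Ifit1, Rsad2, Cmpk2, Bst2 and Parp14. A second set was lower in P3 without passing with either drug, among them Irf8, Mx1, Mx2, Stat2, Epsti1 and Isg20. Not passing does not show that a gene was unchanged, since the treated libraries of Isg20 were all above its DMSO pair. The last set did not pass in P3 and rose with the drugs: of the 13 members that did not pass in the tumours, 9 rose with azacytidine and 10 with decitabine, among them Usp18, Uba7, Samd9l, Znfx1 and Parp12. Over all genes that did not pass in the tumours, 11.2% and 9.54% did so. Samd9l was at 50.1 and 82.4 CPM in P0 and at 89.4 and 71.3 CPM in P3, so its tumour groups overlapped. No member was lower in P3 and lower with a drug.

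**Figure D4:**
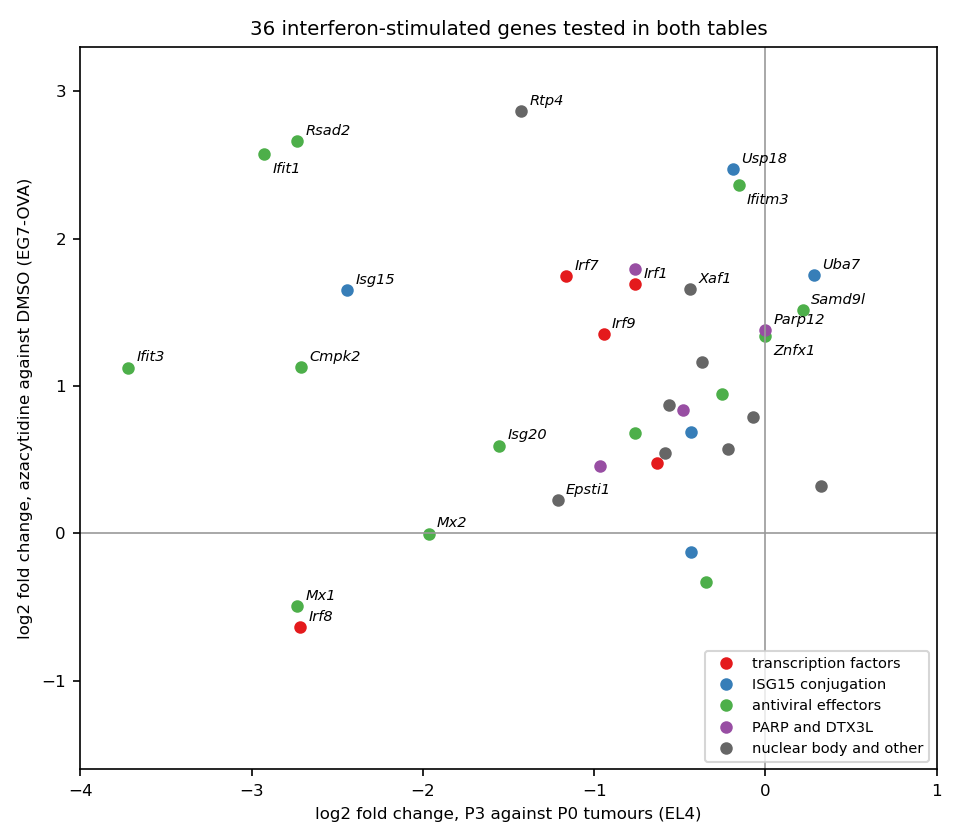
Log2 fold change of the 36 members tested in both tables, P3 against P0 on the x axis and azacytidine against DMSO on the y axis, coloured by role, with some members named. Rsad2 and Ifit1 sit at upper left (-2.73 and -2.93 in the tumours, 2.66 and 2.57 with azacytidine), Mx1 and Irf8 at lower left, and Usp18 and Uba7 at upper right near 0 in the tumours.

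The promoter letters shown above were laid beside the calls as a description. Of the 10 genes with an ISRE core 7 were lower in P3, with a median log2 fold change of -1.66, against 13 of 22 without one and a median of -0.50. Ifit3 (-3.72) and Ifit3b (-3.36), the steepest falls, are both among the 7. They are not separate observations, since the bases shown were the same and reads could have been assigned to either. With azacytidine 5 of 8 tested genes with the core rose, with a median of 1.39, against 11 of 21 without it and a median of 0.79. With decitabine the counts were 4 of 8 and 13 of 21, with medians of 1.78 and 0.86. Irf1, the member with the smallest p for either drug, has GAS letters and no ISRE core in its window. Among tested genes with a core, Rsad2, Ifit1, Bst2 and Trim21 rose with each drug and Isg15 with azacytidine alone. Stat2, Ifit3 and Ifitm3, which also have a core, did not pass with either drug.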

How the data were processed

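Total RNA from 4 EL4 tumour libraries and 6 EG7-OVA libraries was sequenced, per the labels. The deposited EL4 table holds raw counts per gene symbol. The deposited EG7 table was handled as estimated counts, since 145 values in 62 entries were not whole, none of them in a member. How the authors made those values is not stated. Per the submitters' processing notes the tools were fastp, Trim Galore, STAR and featureCounts and the builds GRCh38 and mm10, with no version, option or annotation named.

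Values were rounded for the models. Genes were kept by filterByExpr, scaled by TMM and tested by the quasi-likelihood test of edgeR 4.0.16 under R 4.3.3, each table on its own with 1 mean per group and all 6 EG7 libraries together. All tests were two-sided, p-values were adjusted by Benjamini-Hochberg over all genes, and the threshold was an adjusted p of 0.05. SE was the log2 fold change over the root of F, and intervals are 95%. For a bound on a fold, 3 counts over the group stood in where no read was found. In a group of 1 to 3 reads a ratio with its exact counting interval was given, and intervals and floors cover counting error only. Fitted folds include a small prior count and can differ slightly from ratios of CPM. Leaving out a library left 1 library in its group, assumed to vary like the others. EdgeR's common biological coefficient of variation came to 0.188 for EL4 and 0.244 for EG7. In data simulated at these depths, 100 genes each had a log2 fold of 1 and of 2, and all others were unchanged. Of these the pipeline recovered 47 and 79 for the 19521 genes of the EL4 comparison. It recovered 32 and 61 for 18497 genes with azacytidine and 40 and 62 for 18554 genes with decitabine. Between the drugs it recovered 28 and 72 for 18459 genes. Far larger shares were called against P0 or DMSO, such as 19.9% lower in P3. The adjustment depends on that share, so these recoveries need not hold for those comparisons.

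The members and lists were chosen with earlier results of these data known. All 39 members are named. Values in every library are given for the 8 members with the smallest p in a comparison and for Isg15, Usp18, Ifit1, Ifit3, Mx1, Rsad2, Stat2, Irf9, Irf1, Irf7, Irf8 and Bst2, and a few others shown that way were picked after their values were seen. Of each pathway list the 2 genes with the smallest p are named, except where a gene is not reported here. Marker genes, Iigp1 and the fall of Gbp2 were named after their values were seen. Promoters came from RefSeq (GRCm38.p6) and gene positions from GENCODE vM21 (mm10). Processing was varied by using DESeq2 1.42.0, its size factors within edgeR, no filter, a filter at 1 CPM in both libraries of a group with 100 counts in all, a replicate block, a fit of just the 4 libraries of a comparison, and fits with 1 library omitted. DESeq2 without each P0 library and a block with crossed DMSO numbers were chosen after seeing the data.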

Additional observations from a re-analysis of the deposited data

How the results depend on the processing

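The limit that matters is the number of libraries. The count of members lower in P3, 25, was 0 to 31 with 1 library left out, and 0 with either P0 library left out, when edgeR called no gene at all. DESeq2 without P0 replicate 2 gave 9, a setting chosen after seeing the data. The 1 member higher in P3 became 0 with DESeq2, 0 with no filter, 0 with DESeq2 without either P0 replicate, and 0 to 3 with 1 library left out. The count higher with azacytidine, 21, ranged from 12 to 23 with 1 library left out, and that with decitabine, 22, from 14 to 23. A replicate block also took the 1 member higher in P3 to 0. The other alternatives kept these counts within 1.5 times, and the 0 members lower with either drug stayed 0 in all of them. Over all genes, azacytidine against decitabine gave 0 calls in the main edgeR fit, 112 higher and 266 lower with no filter, and 37 higher and 135 lower in DESeq2. Some edgeR fits with 1 library left out, among them those without a DMSO library, also called genes between the drugs, though no member. Fold changes that did not pass changed sign under an alternative for 6 of 39 members in P3, 3 of 36 with azacytidine and 5 of 36 with decitabine, none of them called, and for 1 of the 10 members run between the drugs. The cause was not tested. With 1 library left out, the P3 values ranged from -0.17 to 0.15 for Parp12, from -0.056 to 0.055 for Znfx1, from -0.094 to 0.59 for Samd9l, from -0.67 to 0.040 for Ifit2, from -0.40 to 0.063 for Ifitm3 and from -0.59 to 0.13 for Usp18. Azacytidine values ranged from -0.13 to 0.067 for Mx2, from -0.17 to 0.68 for Epsti1 and from -0.024 to 1.15 for Stat2. Decitabine values ranged from -0.30 to 0.33 for Irf8, from -0.10 to 0.089 for Mx2, from -0.28 to 0.11 for Ifit2, from -0.33 to 0.55 for Mx1 and from -0.096 to 1.07 for Stat2. Rsad2 between the drugs ranged from -0.52 to 0.57. In DESeq2 without a P0 library, Samd9l was -0.11, Ifit2 0.022 and Znfx1 0.014. With the stricter filter Parp12 was 0.016 and Znfx1 0.014 in P3 and Mx2 0.0067 with azacytidine. Mx2 with azacytidine was 9.0e-05 with a replicate block and 0.00088 with crossed DMSO numbers. With decitabine, Irf8 was -0.031 and Mx2 -0.017 with median-ratio size factors, the same -0.031 and -0.017 in DESeq2, and Irf8 -0.012 with only the 4 libraries compared.

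Same-numbered libraries are not shown to be pairs. Their deviations from the group means correlated at -0.0374 between P0 and P3, 0.273 between azacytidine and decitabine, -0.257 between azacytidine and DMSO and -0.191 between decitabine and DMSO, and the labels number the DMSO libraries in 2 ways. With a replicate block 21 members were lower and 0 higher in P3, 20 were higher with azacytidine and 22 with decitabine. With the DMSO numbers crossed, chosen after seeing the data, the last 2 counts were 23 and 25.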
